A study of Mus musculus with 6 samples.

Results

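The genes described here are 10 that mark macrophages at the borders of the brain or take part in antigen presentation by MHC class II: Mrc1, Cd163, Pf4, Lyve1, F13a1, Ms4a7 and Cbr2 for the first role, and Cd74, H2-Aa and H2-Ab1 for the second. They were found by symbol among the 53465 genes of the count matrix, each symbol matched 1 Ensembl identifier, and all 10 were among the 13768 genes with enough reads to be tested. The RNA is labelled as that of endothelial cells of the brain cortex, and the mice were males of 8 to 12 weeks with the genotype tie2-Cre, ai9 and rpl22HA/HA. One group received pentylenetetrazol (PTZ), a convulsant that blocks GABA-A receptors, and the control group received phosphate-buffered saline (PBS), with 3 libraries per group numbered 1, 2 and 4. Both groups carry the same alleles. The Tie2 promoter drives Cre in endothelium and also in some blood cells. The allele ai9 is a fluorescent reporter of Cre activity, and rpl22HA adds a tag to a ribosomal protein in cells with Cre. The sources used here do not give how cells or ribosomes were separated, the dose of PTZ or the time to collection. No label states whether each library was made from its own animal, so the p-values reflect only how far these libraries differ, and that may be technical.

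Border macrophages sit along vessels in the perivascular space and in the meninges and choroid plexus. They are a separate population from microglia, which lie inside the tissue, and they carry scavenger receptors and hyaluronan receptors with which they take up material from the fluid around vessels. MHC class II molecules are pairs of an alpha and a beta chain that show peptides from engulfed protein to CD4+ T cells. In the healthy brain part of the border macrophages carry them, while microglia carry little. In the nucleus, class II genes are switched on together by the coactivator Ciita, which binds a complex of RFX and NF-Y proteins seated on conserved boxes before each gene.

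The Y box, the site of NF-Y, has the core letters ATTGG or, on the other strand, CCAAT. Of the 10 genes 7 had an entry in the RefSeq promoter table of GRCm38.p6, which gives 250 bases before to 50 after an annotated start. The promoters of H2-Aa and of its sister gene H2-Eb1 are shown because the reads of both genes stayed in a narrow ratio across all libraries (values below). Each is written 5′ to 3′ on the strand of the gene, and capitals mark ATTGG or CCAAT and the longer CTGATTGG. H2-Aa lies on the minus strand at chr17:34287774-34288073 and H2-Eb1 on the plus strand at chr17:34305617-34305916.
H2-Aa: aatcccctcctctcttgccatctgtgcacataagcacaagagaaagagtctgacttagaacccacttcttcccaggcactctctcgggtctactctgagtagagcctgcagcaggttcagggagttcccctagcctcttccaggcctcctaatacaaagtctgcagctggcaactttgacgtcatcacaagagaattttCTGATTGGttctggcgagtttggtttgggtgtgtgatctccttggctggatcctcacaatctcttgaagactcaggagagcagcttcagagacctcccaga
H2-Eb1: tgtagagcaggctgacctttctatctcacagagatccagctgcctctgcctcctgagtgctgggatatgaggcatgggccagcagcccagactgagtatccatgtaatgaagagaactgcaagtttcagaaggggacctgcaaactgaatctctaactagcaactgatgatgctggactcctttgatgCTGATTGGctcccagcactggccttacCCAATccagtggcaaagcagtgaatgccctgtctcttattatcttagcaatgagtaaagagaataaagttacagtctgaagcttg
Counted from the annotated start, CTGATTGG begins at position -51 in H2-Aa and at -62 in H2-Eb1, and H2-Eb1 holds a CCAAT at -35 as well. Searched on both strands, CTGATTGG was in 4.10% of the 32851 promoters of the table and the shorter ATTGG, which it contains, in 37.4%. Of 22 promoters of the further class II and antigen loading genes described below, H2-Eb1 among them, 3 held CTGATTGG (13.6%). H2-Oa was also among these, with CTGATTGG at -46. Those of H2-DMb1 and H2-Ob did not hold it but held the shorter ATTGG, at -61 and -57. Neither entry of H2-DMa held CTGATTGG. The gene start of H2-DMa in the GENCODE annotation lies at -3291 and -5977 from the starts of these entries. Of 19 promoters of genes that respond to interferon gamma, 5 held CTGATTGG (26.3%). Among the border macrophage genes, where F13a1 and Ms4a7 have 2 entries each, 5 of 8 promoters held the short form and 0 the long form. The letters GAGGAAGT or their complement ACTTCCTC, a form of the site of the myeloid factor PU.1, were in 2 of these 8, Pf4 at -10 and the second entry of F13a1 at 14, against 3.20% of all promoters. They were in 0 of 15 promoters of further border macrophage genes and 0 of 10 of microglia genes. The counts were 2 of 12 for genes shared by myeloid cells, 2 of 8 for monocyte genes and 2 of 7 for neutrophil genes. These matches describe the letters only.

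Levels are given as CPM, the count of a gene scaled to its library's size as edgeR computes it, after TMM scaling. Gene counts summed to 11107481 to 15406967 reads per library, and the 10 genes took up 0.126% to 0.184% of them, 13953 to 27448 reads. No member was at 0 in any library. Pecam1, an adhesion molecule of endothelium, had 553 ± 69.6 CPM in PBS and 642 ± 76.6 CPM in PTZ (SD, n = 3). PTZ replicate 1 had 9.34% of its reads outside annotated genes, against 2.99% to 5.19% in the other libraries. Log2 fold changes are PTZ against PBS from edgeR's quasi-likelihood test, with their standard error (SE) and 95% confidence interval, and adjusted p-values are corrected over all 13768 genes.

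The 7 border macrophage genes were at nearly the same mean level in PTZ and PBS. Their log2 fold changes ran from -0.22 to 0.26 with a median of -0.01, against a median of 0.03 over all genes tested, and 3 were positive and 4 negative, where 52.7% of all genes were positive. The 3 class II genes all had positive values, of which only that of H2-Ab1 was large, and that value rested on 1 library. At an adjusted p under 0.05, edgeR's quasi-likelihood test called 0 of the 10 genes, where it called 0% of all genes as higher and 0% as lower. DESeq2 and limma-voom also called 0 of the 10. At an unadjusted p under 0.05 stood 1 of the 10, H2-Ab1, against 7.21% of all genes, or 3.83% as higher, and no member had groups that did not overlap, against 14.3% of all genes. In bulk RNA, fewer cells of a type and less RNA per cell cannot be told apart.

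**Figure D1:**
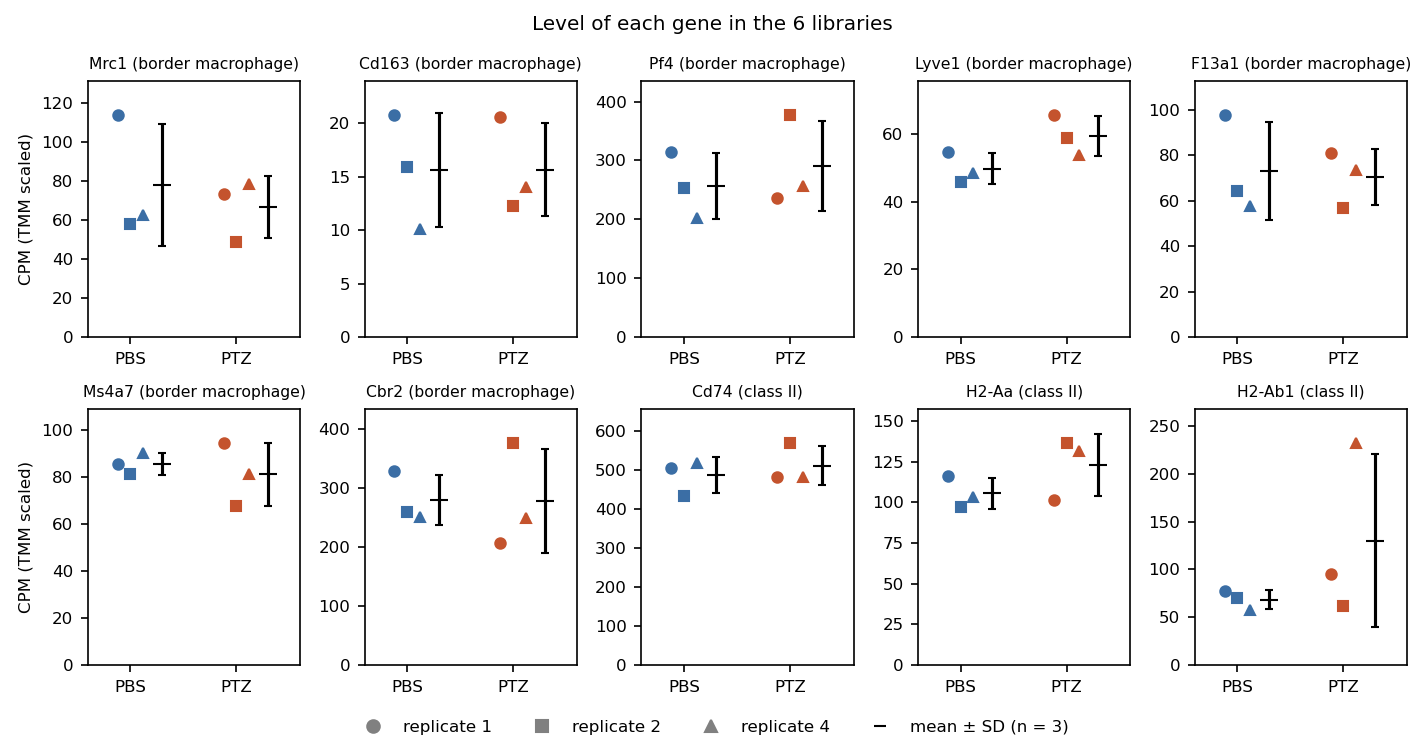
Level of the 10 genes in each library, in CPM after TMM scaling, each panel with its own axis from 0. Marker shapes give the replicate number, blue is PBS, orange is PTZ, and black bars are the mean ± SD of 3 libraries. The groups overlap in every panel, and the H2-Ab1 value of PTZ replicate 4, 233 CPM, stands far above the other 5.

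Among the scavenger receptors, Mrc1 (ENSMUSG00000026712, protein coding, chromosome 2, 14229392 to 14332057, plus strand, GRCm38), the mannose receptor CD206, stood at 114, 57.9 and 62.4 CPM in PBS replicates 1, 2 and 4. In PTZ replicates 1, 2 and 4 it stood at 73.5, 48.7 and 78.6 CPM. PBS replicate 1 was the highest library and PTZ replicate 2 the lowest, so the groups overlapped. This gave a log2 fold change of -0.22 (SE 0.31, interval -0.90 to 0.46, edgeR adjusted p = 0.899), and without PBS replicate 1 it was 0.15.

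Cd163 (ENSMUSG00000008845, protein coding, chromosome 6, 124304656 to 124330527, plus strand), the receptor that takes up complexes of haemoglobin and haptoglobin, stood at 20.8, 15.9 and 10.1 CPM in PBS and at 20.6, 12.3 and 14.1 CPM in PTZ. The means were 15.6 ± 5.34 and 15.7 ± 4.39 CPM (SD, n = 3), and replicate 1 was the highest in both groups. Its log2 fold change of 0.01 (SE 0.38, edgeR adjusted p = 0.999) had an interval of -0.84 to 0.85, among the widest of the 10. The sign was negative in 8 of 15 alternative fits, among them the authors' own scaling (-0.07).

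Lyve1 (ENSMUSG00000030787, protein coding, chromosome 7, 110850607 to 110863239, minus strand), a hyaluronan receptor found on perivascular macrophages and on lymphatic endothelium, came nearest to a parting of the groups among the 7. It stood at 54.8, 45.9 and 48.5 CPM in PBS and at 65.7, 58.8 and 53.8 CPM in PTZ. PTZ replicate 4 lay just under PBS replicate 1, and the other PTZ libraries lay above all PBS libraries. The log2 fold change was 0.26 (SE 0.21, interval -0.21 to 0.73, edgeR adjusted p = 0.813), with a positive sign in all 15 alternative fits. It was also the only member higher in PTZ within all 3 pairs of equal replicate number, a pattern that 18.5% of all genes showed in that direction.

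Of the secreted factors, Pf4 (ENSMUSG00000029373, protein coding, chromosome 5, 90772435 to 90773383, plus strand), which border macrophages make and platelets store as a chemokine, stood at 314, 254 and 202 CPM in PBS. In PTZ it stood at 236, 377 and 256 CPM. PTZ replicate 2 was the highest and PBS replicate 4 the lowest, with overlap between the groups. Its log2 fold change was 0.18 (SE 0.26, interval -0.41 to 0.76, edgeR adjusted p = 0.911), and -0.10 without PTZ replicate 2.

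F13a1 (ENSMUSG00000039109, protein coding, chromosome 13, 36867178 to 37050244, minus strand), the catalytic chain of the factor that cross-links fibrin, stood at 97.7, 64.3 and 57.5 CPM in PBS and at 80.9, 56.6 and 73.4 CPM in PTZ. Its order of libraries resembled that of Mrc1, with PBS replicate 1 on top and PTZ replicate 2 at the bottom. Its log2 fold change was -0.06 (SE 0.26, interval -0.63 to 0.52, edgeR adjusted p = 0.974), and it was 0.21 without PBS replicate 1. An antisense gene, Gm30489, shares 74 bases with its exons and had 0 reads in all libraries.

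The remaining markers are a membrane protein and an enzyme. Ms4a7 (ENSMUSG00000024672, protein coding, chromosome 19, 11321039 to 11336146, minus strand), a four-pass membrane protein that parts border macrophages from microglia, was the steadiest in PBS, at 85.3, 81.1 and 90.1 CPM. In PTZ it stood at 94.6, 67.4 and 81.1 CPM, so that the highest and the lowest library were both PTZ. Its log2 fold change was -0.08 (SE 0.21, interval -0.54 to 0.39, edgeR adjusted p = 0.958).

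Cbr2 (ENSMUSG00000025150, protein coding, chromosome 11, 120729489 to 120732114, minus strand), a carbonyl reductase, stood at 329, 259 and 250.3 CPM in PBS and at 207, 377 and 249 CPM in PTZ. Here too the extremes were PTZ libraries, replicate 2 on top and replicate 1 at the bottom. The mean was 279 ± 43.0 CPM in PBS and 278 ± 88.4 CPM in PTZ (SD, n = 3), a log2 fold change of -0.01 (SE 0.27, interval -0.60 to 0.59, edgeR adjusted p = 0.998). Its sign was positive in 4 of 15 alternative fits.

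Together the 7 genes summed to 1015, 777 and 721 CPM in PBS and to 778, 998 and 807 CPM in PTZ. The sums interleave, with PBS replicate 1 and PTZ replicate 2 at the top. The log2 ratio of the group means was 0.04 and lay between -0.08 and 0.20 when a library was left out or the scaling was changed.

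The members did not vary as 1 block from library to library. Across the 6 libraries, the log2 levels of Mrc1 and F13a1 had a Pearson correlation of 0.93, those of Cd163 and F13a1 0.88, and those of Pf4 and Cbr2 0.87. Pf4 and Ms4a7 stood at -0.81 and Cbr2 and Ms4a7 at -0.80, and the 21 pairs of border macrophage genes had a median of 0.17. These values rest on 6 points that share library and depth, and are given without a test. In PTZ replicate 2 the reads of Pf4 were 7.74 times and those of Cbr2 7.73 times those of Mrc1. In the other 5 libraries these ratios were 2.76 to 4.39 and 2.81 to 4.47.

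Exon length moved with part of these differences. Pf4, Cbr2 and Cd74 have 721, 1327 and 1679 exonic bases and were highest in PTZ replicate 2, while Mrc1, F13a1 and Ms4a7, with 6371, 6739 and 4453 bases, were lowest there. H2-Aa, with 3798 bases, was also highest in PTZ replicate 2, and in PBS replicate 2 Pf4, Cbr2 and Cd74 lay below their own means. Over all genes tested, those under 1000 bases had a median log2 deviation from their own mean of 0.41 in PTZ replicate 2 and 0.34 in PBS replicate 2. The same genes stood at -0.29 in PTZ replicate 1 and -0.24 in PTZ replicate 4. Genes over 4000 bases stood at 0.16 in PTZ replicate 1 and between -0.06 and 0.09 elsewhere. With an offset that removes this length trend from each library, an alternative added after seeing the data, the log2 fold changes were -0.30 for Mrc1, -0.04 for Cd163, 0.32 for Pf4, 0.35 for Lyve1, -0.14 for F13a1, -0.08 for Ms4a7 and 0.13 for Cbr2, and 0 of the 10 genes were called. What gives rise to the trend was not tested.

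**Figure D2:**
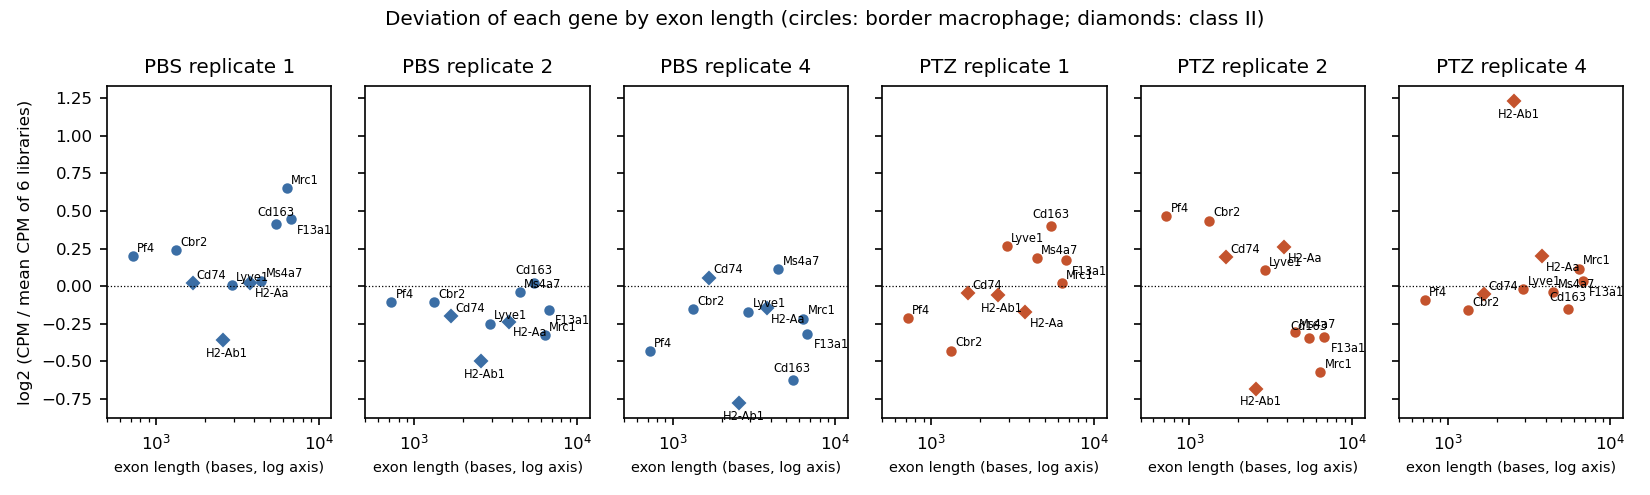
Log2 deviation of each gene's CPM from its mean over the 6 libraries (vertical axis) against exonic bases on a log axis, 1 panel per library. Circles are border macrophage genes, diamonds are class II genes, blue is PBS and orange is PTZ. In PTZ replicate 2 the short genes Pf4 and Cbr2 lie above 0 and the long genes Mrc1, F13a1, Cd163 and Ms4a7 below it, while in PTZ replicate 1 the order is turned.

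The class II genes comprise the chains of the I-A molecule and the chaperone that all class II molecules need. Cd74 (ENSMUSG00000024610, protein coding, chromosome 18, 60803848 to 60812652, plus strand), the invariant chain that blocks the peptide groove until it is trimmed in the endosome, stood at 506, 433 and 518 CPM in PBS and at 482, 569 and 481 CPM in PTZ. It varied least of all members, with a highest library 1.32 times the lowest. Its log2 fold change was 0.07 (SE 0.23, interval -0.43 to 0.58, edgeR adjusted p = 0.965), and it was negative under the authors' scaling and without PBS replicate 2 or PTZ replicate 2.

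H2-Aa (ENSMUSG00000036594, protein coding, chromosome 17, 34282744 to 34287823, minus strand), the alpha chain of I-A, stood at 116, 97.0 and 103 CPM in PBS and at 101, 137 and 131 CPM in PTZ. PTZ replicates 2 and 4 lay above all PBS libraries and PTZ replicate 1 among them. The log2 fold change was 0.22 (SE 0.21, interval -0.24 to 0.68, edgeR adjusted p = 0.838), and its sign was positive in all 15 alternative fits.

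H2-Ab1 (ENSMUSG00000073421, protein coding, chromosome 17, 34257689 to 34269419, plus strand), the beta chain that pairs with the product of H2-Aa, stood at 77.2, 70.1 and 57.7 CPM in PBS. In PTZ it stood at 95.1, 61.6 and 233 CPM. PTZ replicate 1 lay above all PBS libraries, PTZ replicate 2 below 2 of them, and PTZ replicate 4 at more than any other value of this gene. The log2 fold change was 0.93 (SE 0.41, interval 0.01 to 1.84, edgeR unadjusted p = 0.0481, adjusted p = 0.690). Without PTZ replicate 4 it was 0.19 (edgeR adjusted p = 0.913).

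That library held 3716 reads of H2-Ab1, against 621 to 1299 in the other 5, and its partner chain did not follow. H2-Ab1 had 1.77 reads for each read of H2-Aa in PTZ replicate 4. In PBS replicates 1, 2 and 4 it had 0.666, 0.722 and 0.558, and in PTZ replicates 1 and 2 it had 0.938 and 0.451. H2-Eb1, the beta chain of the I-E molecule, kept a ratio to H2-Aa of 0.515 to 0.729 in all 6 libraries, with 0.692 in PTZ replicate 4. Cd74 had 3.66 reads per read of H2-Aa in that library and 4.17 to 5.01 in the others. The gene annotation shows no other gene over the exons of H2-Ab1, and reads shared with close relatives of its family cannot be checked in a count table.

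**Figure D3:**
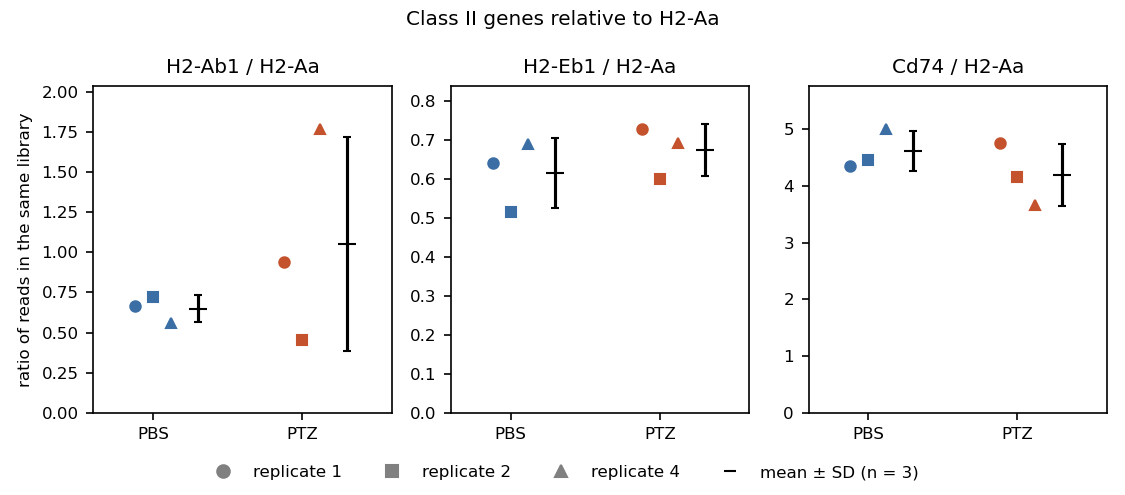
Reads of H2-Ab1, H2-Eb1 and Cd74 per read of H2-Aa in the same library, each panel with its own axis from 0. Shapes give the replicate number and black bars the mean ± SD of 3 libraries. H2-Ab1 stands at 1.77 in PTZ replicate 4 and at 0.938 or less in every other library, while H2-Eb1 stays between 0.515 and 0.729.

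The 3 class II genes summed to 699, 600.0 and 679 CPM in PBS and to 678, 768 and 844 CPM in PTZ. PTZ replicate 1 lay within the PBS range and the other PTZ libraries above it. The log2 ratio of the group means was 0.21, and 0.13 without PTZ replicate 4.

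Between genes, levels were compared as RPKM, the CPM divided by the exon length in kilobases, as the mean and range over the 6 libraries. Pf4 was highest at 379 (281 to 523), followed by Cd74 at 297 (258 to 339) and Cbr2 at 209.8 (156 to 284), and each of these ranges overlapped that of its neighbour. A clear step separated them from H2-Ab1 at 38.6 (22.5 to 90.6) and H2-Aa at 30.1 (25.6 to 36.0), which overlapped each other. Lyve1 and Ms4a7 both stood at 18.7, below the range of H2-Aa, then came Mrc1 at 11.4 (7.65 to 17.9) and F13a1 at 10.6 (8.40 to 14.5), with overlapping ranges from Lyve1 on. Cd163 was lowest at 2.86 (1.85 to 3.81), apart from all others. The shared macrophage receptor Csf1r had an RPKM of 56.9 in PBS and 52.0 in PTZ, and the microglial receptor P2ry12 42.1 and 21.6. All annotated exons of a gene count in its length, so genes with long seldom-used exons appear lower.

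The wider set of border macrophage genes gave a similar picture with an exception in the chemokine Ccl24, which attracts eosinophils. Of 17 further genes all were tested, and edgeR's quasi-likelihood test called 0. Positive log2 fold changes were found for 6 and negative ones for 11, with a median of -0.11, where 47.3% of all genes were negative. Ccl24 stood at 37.3, 35.3 and 36.2 CPM in PBS and at 62.7, 127 and 69.6 CPM in PTZ. The 2 groups did not overlap, with PTZ higher, as for 7.3% of all genes. The log2 fold change was 1.25 (SE 0.29, edgeR adjusted p = 0.446), and it was 0.83 without PTZ replicate 2. DESeq2 called it, with an adjusted p of 0.0350, where that tool called 0.552% of all genes in either direction. Without a filter on low counts edgeR also called it, where it called 77 of 34777 genes as higher and 44 as lower. The other fits, among them all that left out a library, did not.

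The further members named by p-value were low or overlapped between the groups. Slc40a1, the iron exporter, also made by other cells of the brain, stood at 73.9 ± 22.7 CPM in PBS and 47.2 ± 17.9 CPM in PTZ (SD, n = 3), a log2 fold change of -0.64 (SE 0.31). Cp, the ferroxidase that works with it, stood at 405 ± 106 and 531 ± 139 CPM (0.39, SE 0.29). The folate receptor gene Folr2 had 48, 15 and 25 reads in PBS and 2, 11 and 15 in PTZ. In CPM all PTZ libraries of Folr2 lay below all PBS libraries, as for 7.04% of all genes. Its log2 fold change was -1.55 (SE 0.96, edgeR adjusted p = 0.759). The lectin gene Cd209b had 165, 17 and 24 and then 17, 8 and 27 reads, and Timd4, a receptor for phosphatidylserine, 26, 42 and 1 and then 14, 4 and 1. Siglec1, a sialic acid receptor, had 2 to 36 reads in any library, so several known markers of these cells were near the limit of detection.

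**Figure D4:**
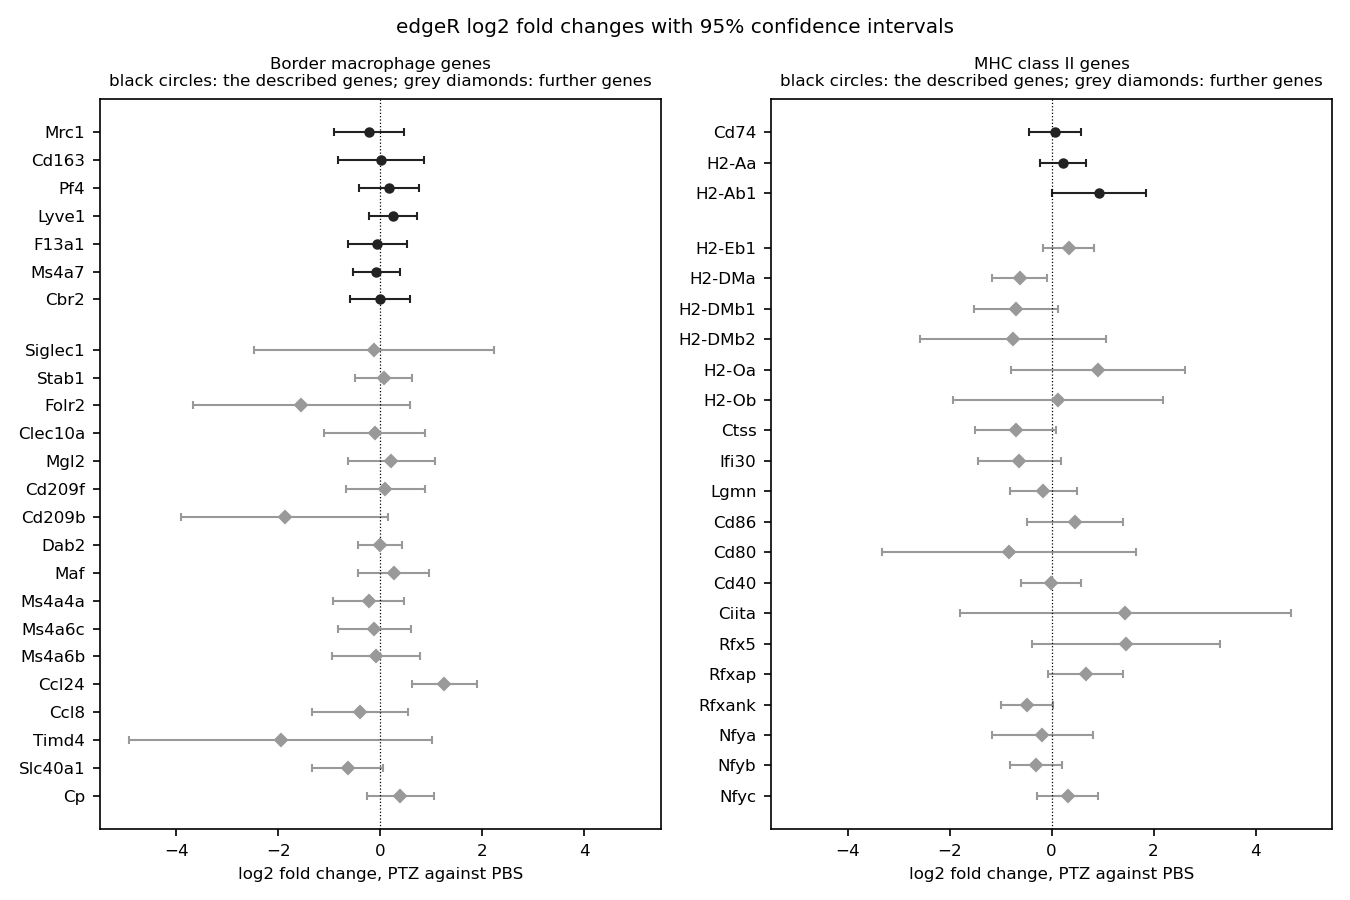
Log2 fold changes of PTZ against PBS from edgeR with 95% confidence intervals. Black circles are the 10 genes and grey diamonds the further genes of both sets that were tested. The intervals of the 7 border macrophage genes all include 0, and among the further ones that of Ccl24 lies above 0 and that of H2-DMa below it.

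The further genes of the class II pathway were mixed in sign. Of 20 further genes of the pathway 19 were tested, 8 with positive and 11 with negative log2 fold changes (median -0.16), where 47.3% of all genes were negative, and edgeR's quasi-likelihood test called 0. H2-DMa, a chain of the H2-M molecule that exchanges the peptide, stood at 40.8, 35.0 and 50.2 CPM in PBS and at 27.4, 26.5 and 27.7 CPM in PTZ. All PTZ libraries lay below all PBS libraries, as for 7.04% of all genes, with a log2 fold change of -0.63 (SE 0.24, edgeR unadjusted p = 0.0256, adjusted p = 0.654). Its partner H2-DMb1 had -0.70 (SE 0.37) and Ctss, the protease that trims the invariant chain and is also high in microglia, -0.71 (SE 0.35). H2-Oa and H2-Ob, chains of the molecule that restrains H2-M, had 0.91 (SE 0.77) and 0.13 (SE 0.93). H2-Eb1 stood at 74.4, 50.0 and 71.2 CPM in PBS and at 73.9, 81.9 and 90.9 CPM in PTZ (0.33, SE 0.23, edgeR adjusted p = 0.773).

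Among the regulators of the class II genes, Ciita was near the limit of detection. Rfx5 had 35, 11 and 19 reads in PBS and 112, 14 and 56 in PTZ. Ciita had 14, 9 and 2 reads in PBS and 9, 47 and 0 in PTZ, so its level could not be compared with any precision. Of the RFX subunits, Rfxap stood at 12.2 ± 3.02 CPM in PBS and 19.5 ± 2.41 CPM in PTZ (SD, n = 3), a log2 fold change of 0.67 (SE 0.33). Rfxank stood at 50.1 ± 6.47 and 35.9 ± 4.21 CPM (-0.48, SE 0.23), and Rfx5 at 1.57 ± 0.562 and 4.36 ± 3.48 CPM (1.47, SE 0.83). The NF-Y subunit genes Nfya, Nfyb and Nfyc had log2 fold changes of -0.18, -0.30 and 0.32. The groups did not overlap for Rfxap, with PTZ higher, nor for Rfxank and Nfyb, with PTZ lower, where 14.3% of all genes did not overlap in either direction, and edgeR's adjusted p-values for these 7 regulators were 0.700 to 0.953.

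Interferon gamma, the main inducer of Ciita, has its own set of response genes. Of 19 on that list 18 were tested, and edgeR's quasi-likelihood test called 0. Values were positive for 6 and negative for 12 (median -0.14), where 47.3% of all genes were negative. Irf1, a transcription factor of the response, stood at 63.5, 249 and 78.8 CPM in PBS and 73.1, 54.8 and 50.3 CPM in PTZ, so its log2 fold change of -1.13 (SE 0.46) rested in large part on PBS replicate 2, without which it was -0.30. Without a filter on low counts edgeR called Irf1 (adjusted p = 0.0126), where it called 44 of 34777 genes as lower, and no other fit did. Nlrc5, the coactivator of MHC class I, stood at 5.06, 11.8 and 8.01 and then 18.9, 13.3 and 15.3 CPM (0.93, SE 0.42, edgeR adjusted p = 0.690).

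Microglial genes were read in the same libraries. All 12 on the microglia list had negative log2 fold changes, where 47.3% of all genes did, with a median of -0.92. At an unadjusted p under 0.05 in edgeR's quasi-likelihood test stood 6 of them as lower, against 3.38% of all genes, and 0 passed after adjustment. Selplg, a selectin ligand, stood at 125, 115 and 199.5 CPM in PBS and 57.2, 58.5 and 107 CPM in PTZ (-0.98, SE 0.31, edgeR adjusted p = 0.625). P2ry13, a purine receptor, stood at 28.2 ± 3.99 and 11.6 ± 6.82 CPM (-1.27, SE 0.42), and P2ry12 at 107 ± 52.9 and 55.0 ± 28.3 CPM (-0.96, SE 0.46) (SD, n = 3). The difference between the 2 lists itself was not tested.

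Genes shared by microglia and border macrophages had a median between those of the 2 lists. Of 16 tested, 14 had negative values (median -0.28), where 47.3% of all genes did, and edgeR called 0. For 3 of the 16 all PTZ libraries lay below all PBS libraries, as for 7.04% of all genes. Aif1, an actin-binding protein of macrophages, was among them (239, 212 and 225 CPM in PBS, 131, 127 and 173 CPM in PTZ, -0.65, SE 0.21, edgeR adjusted p = 0.636). Trem2, a lipid receptor, had -0.69 (SE 0.30) and Csf1r -0.13 (SE 0.24). The list summed to 5585 to 5665 CPM in PBS and to 3576, 5873 and 4940.3 CPM in PTZ, so that PTZ replicate 1 stood apart.

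**Figure D5:**
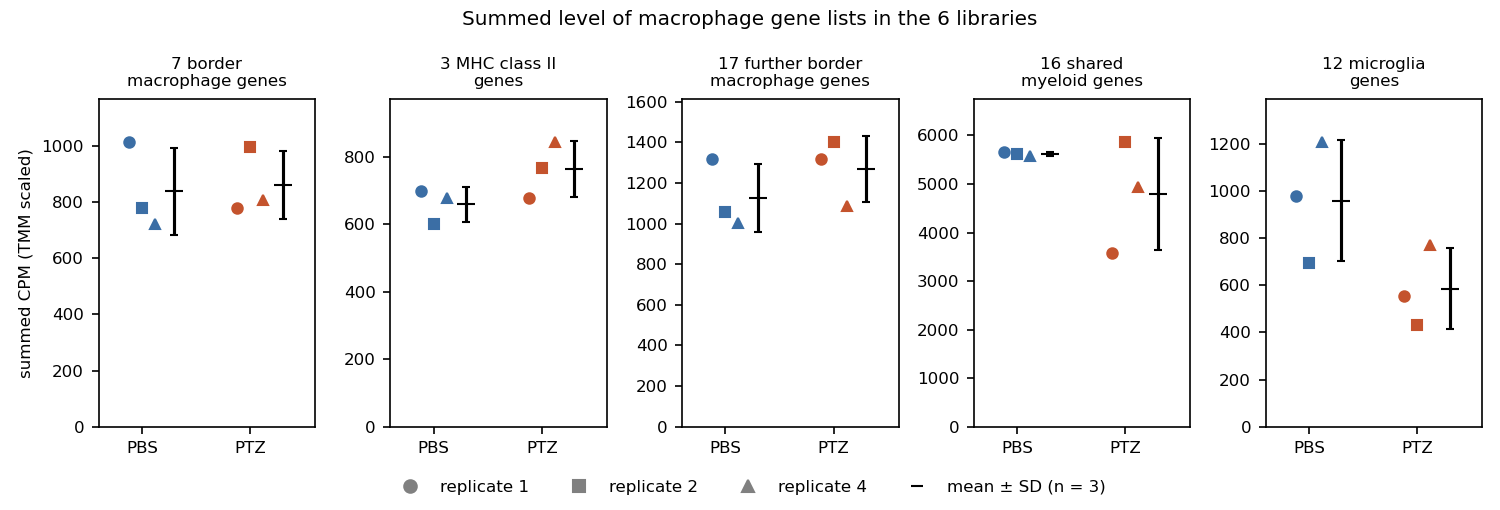
Summed CPM of 5 gene lists in each library, each panel with its own axis from 0. Shapes give the replicate number, blue is PBS, orange is PTZ and black bars are the mean ± SD of 3 libraries. The border macrophage sums interleave between the groups, while the 12 microglia genes sum to 693 to 1209.6 CPM in PBS and 432 to 770.2 CPM in PTZ.

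Set against the shared myeloid genes of the same library, 3 of the 10 genes took a larger part in every PTZ library than in any PBS library. Per 1000 reads of the shared list, H2-Aa had 20.5, 17.3 and 18.5 reads in PBS and 28.4, 23.3 and 26.6 in PTZ. Cd74 had 89.2, 77.0 and 92.7 in PBS and 135, 97.0 and 97.3 in PTZ, and Lyve1 had 9.68, 8.16 and 8.69 in PBS and 18.4, 10.01 and 10.9 in PTZ. For these 3 of the 10 genes the groups did not overlap, with PTZ higher, which on this scale held for 11.2% of all genes, while 2.31% had PTZ lower. On the CPM scale the sum of the shared list was lower in PTZ replicates 1 and 4 than in any PBS library. The other 7 overlapped. Per 1000 reads of the microglia list, all 10 genes were higher in PTZ within each pair of equal replicate number, as were 62.6% of all genes, and the summed CPM of the microglia list was lower in PTZ in every pair. For 3 of the 10, H2-Aa, H2-Ab1 and Lyve1, the groups did not overlap, against 25.5% of all genes with PTZ higher in this way and 0.523% with PTZ lower.

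Several of these genes are also made by other cells, whose markers are given for comparison, and their part in the values was not tested. Platelets hold Pf4 and F13a1: their 11 markers summed to 139.7 to 237 CPM in PBS and 116 to 142 CPM in PTZ. Of the 11 platelet markers 10 had negative log2 fold changes (median -0.47), where 47.3% of all genes did, and edgeR called 0. Itga2b stood at 50.4 ± 26.2 and 31.2 ± 9.03 CPM (SD, n = 3), a log2 fold change of -0.69 that was -0.21 without PBS replicate 2. Gp1ba, the exception in sign, had 13, 10 and 14 reads in PBS and 38, 54 and 16 in PTZ (1.66, SE 0.88, and 0.94 without PTZ replicate 2), and Gp1bb was at 0 in PTZ replicates 2 and 4. Pf4 had 5.498, 5.30 and 3.65 reads per read of its platelet neighbour gene Ppbp in PBS and 4.49, 12.4 and 7.40 in PTZ. Lymphatic endothelium carries Lyve1, and its defining factor Prox1 had 10, 9 and 1 reads in PBS and 2, 6 and 1 in PTZ. Of 7 lymphatic markers 5 were tested, 4 with positive and 1 with negative log2 fold changes (median 1.36), and edgeR called 0. Over all genes 52.7% were positive. Pdpn had 1.36 (SE 0.93) from 6 to 93 reads per library and Tbx1 1.56 (SE 1.05) from 3 to 34. For both the groups overlapped. The list summed to 62.5 to 127 and 81.0 to 135 CPM, most of it Flt4, which blood endothelium also makes, and Ccl21a was at 0 in PBS and PTZ replicates 4. B cells and dendritic cells carry class II molecules: the 8 dendritic cell markers summed to 69.9 to 79.4 CPM in PBS and 59.4 to 101 CPM in PTZ, and Batf3 was at 0 in PTZ replicate 2. Most of the dendritic cell sum was Zbtb46, at 44.0 ± 2.83 CPM in PBS and 46.2 ± 12.2 CPM in PTZ (SD, n = 3). Of the 8 markers 7 were tested, 4 with positive and 3 with negative log2 fold changes (median 0.05), and edgeR called 0. Itgax, a marker of dendritic and other activated myeloid cells, had 39, 16 and 25 reads in PBS and 2, 1 and 2 in PTZ. Its log2 fold change was -3.88 (SE 0.98, edgeR adjusted p = 0.513). In CPM all PTZ libraries of Itgax lay below all PBS libraries, as for 7.04% of all genes. Clec9a, a marker of cross-presenting dendritic cells, had 27, 24 and 30 reads and then 66, 48 and 99, and the B cell gene Ms4a1 had 59, 40 and 27 and then 4, 9 and 8, and edgeR called neither after adjustment. Blnk, an adaptor of B cell signalling, stood at 14.8 ± 7.81 CPM in PBS and 5.47 ± 1.66 CPM in PTZ (SD, n = 3), a log2 fold change of -1.44 (SE 0.53). Monocyte markers summed to 419 to 537 and 620.2 to 901 CPM, most of it Fn1 (0.66, SE 0.27), which vessel cells also make, while Ms4a4c had -1.33 (SE 0.73). Markers of pericytes and smooth muscle (199 to 562 and 338 to 1074 CPM) and of fibroblasts (100.3 to 161 and 90.4 to 311 CPM) were highest in PTZ replicates 1 and 4, with median log2 fold changes of 1.18 and 1.35. Acta2 had 1.37 (SE 0.53), Pdgfrb 1.28 (SE 0.51), Col1a2 1.69 (SE 0.40) and Col1a1 2.36 (SE 0.65). The main edgeR test called none of them. DESeq2 called Col1a2 (adjusted p = 0.0203) and Col1a1 (adjusted p = 0.0343), where that tool called 0.552% of all genes in either direction. Without a filter on low counts edgeR called Col1a2, Col1a1 and Acta2. That fit called 77 of 34777 genes as higher and 44 as lower.

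Among 9663 named genes with a mean of at least 5 CPM, those whose log2 levels followed the summed border macrophage genes most closely over the 6 libraries were Spidr (Pearson r = 0.998), Pgp (0.981), Dcaf6 (0.98), Eci2 (0.972) and Ripply3 (0.969). For the summed class II genes they were Zfand3 (0.996), Suz12 (0.986), Trim26 (0.982), Wdr6 (0.981) and Arl6ip6 (0.973). None of the myeloid genes on the lists was among them. They are the highest of many values over 6 points and are given as a description.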

How the data were processed

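RNA of brain endothelial cells was sequenced in 3 PBS and 3 PTZ libraries. Per the submitters' processing notes, the build was GRCm38 and the tools were HTSeq, edgeR, CASAVA and TopHat2 2.1.1, with no role or order given. The authors deposited raw read counts per Ensembl gene and, per library, a scaled signal in which each value is the count divided by 1 factor (100% of values whole within 0.01 reads after multiplication). The signal served only as an alternative scaling. The sources used here do not give the strand setting. The 5 summary rows of the count table, 16.1% to 22.9% of reads, were left out.

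With R 4.3.3 and edgeR 4.0.16, genes were kept by filterByExpr (minimum count 10, total 15), scaled by TMM and tested with the quasi-likelihood test on group alone, 2-sided, and p-values were adjusted by Benjamini-Hochberg and called under 0.05. The common dispersion was 0.221. DESeq2 1.42.0 and limma-voom 3.58.1, other scalings and filters, and leaving out each library were alternatives. The script was tested on simulated data. Symbols, coordinates and exon lengths came from GENCODE M21 of GRCm38.

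Replicate numbers come from the titles. The distance of each library from its group mean, over genes, correlated at 0.21, 0.27 and 0.26 in same-numbered libraries and at -0.17 to -0.10 in others, so the numbers were taken as pairs. Distances from a group mean cancel within the group, so these correlations are not independent of each other. The log2 fold changes, SE and p-values of each gene ignore the pairs, except where the replicate block is named. Libraries of a group differed beyond sampling noise (chi-square per degree of freedom 43.8 to 99.1).

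The members and lists were chosen with earlier results of these data known. All 10 members are named, and of the other lists described up to 4 genes past the threshold, otherwise up to 2 with the smallest p (6 for the lists that extend the members), plus Ciita, H2-Eb1, Csf1r, P2ry12, Itga2b, Prox1 and Pecam1. Siglec1, Ccl21a, Batf3, Zbtb46, Gp1bb, Flt4, Pdpn, Tbx1, H2-Oa, H2-Ob, Nfya, Nfyb, Nfyc and Ppbp were added after their values were seen. A B cell marker and the sum over that list are not reported here. Genes most alike were the 5 with the highest Pearson correlation to each sum.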

Additional observations from a re-analysis of the deposited data

How the results depend on the processing

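Calls over all genes depended on the tool and the filter. Against 0 higher and 0 lower in edgeR's quasi-likelihood test, no filter beyond 1 read gave 77 and 44, DESeq2 53 and 23, and limma-voom 1 and 0. Leaving out a library gave 0 to 8 higher and 0 to 0 lower. None of the 10 genes was called in any of the 15 alternatives. With the replicate block edgeR called 0 genes higher and 0 lower, H2-Ab1 had a log2 fold change of 0.70, and no call changed. The sums of both sets moved by less than the spread between libraries.

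Values near 0, and the larger one of Ciita (1.45), changed sign. Cd163 was 0.00 (-0.003) with DESeq2 size factors and in DESeq2 (-0.003), -0.07 (-0.0707) with the authors' scaling, -0.04 (-0.0421) without the filter, -0.04 (-0.0355) with the length offset, and -0.26 to 0.27 when a library was left out. Cd74 was 0.00 (-0.0021) with the authors' scaling, and Cbr2 0.13 with the length offset. With a library left out, Mrc1 ran from -0.43 to 0.15, Pf4 from -0.10 to 0.35, F13a1 from -0.24 to 0.21, Cbr2 from -0.33 to 0.17, Cd74 from -0.05 (-0.0533) to 0.11 and Ciita from -1.005 to 2.04. Ciita was -0.59 in limma-voom. The cause was not tested.

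With 3 libraries per group the standard errors of the members were 0.21 to 0.41 on the log2 scale, which limits the precision of each value.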
